A study of Mus musculus with 8 samples.

Results

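The bone morphogenetic protein (BMP) genes described here are 10 rows of the deposited expression table, taken by symbol on the primary chromosomes: the ligands Bmp2, Bmp4, Bmp5 and Bmp7, the receptors Bmpr1a and Bmpr2, the intracellular inhibitor Smad6, and the target genes Id1, Id2 and Id3. All 10 were found once each among the 52778 rows, and all 10 passed the filter on low values. The only antagonist among them is Smad6, so secreted antagonists such as Nog are treated with the rest of the pathway. RNA was sequenced from ventricular heart tissue of mouse embryos at embryonic day 11.5. In the 4 cKO libraries, Rps19bp1 fl/fl alleles were recombined by Xmlc2-Cre, which acts in cardiomyocytes, so other cells of the ventricle are expected to keep the gene. The 4 control libraries are labelled only as control, without their alleles, and the genotype field reads C57BL/6 WT for all 8. The extraction text attached to every library describes cultured cortical neurons, whereas the tissue field and the series text describe ventricles.

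BMPs are secreted dimers of the TGF-beta superfamily. They bind complexes of type I receptors such as Bmpr1a and type II receptors such as Bmpr2, which phosphorylate Smad1, Smad5 and Smad9; these enter the nucleus with Smad4 and switch on Id genes and the feedback inhibitor Smad6. Id proteins pair with basic helix-loop-helix factors and keep them off DNA. In the embryonic heart, BMP signals act in myocardial growth, in patterning of the atrioventricular canal and in the formation of cushion mesenchyme.

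Of the 10 genes, 1 passed the test between groups, where 6.4% of all tested rows passed. Bmp5, a ligand of embryonic myocardium and other tissues, fell to 77.5% of its control level in cKO. Id2 and Id3 were at 117% and 119% of control without passing, Bmp7 was at 87.5%, and Id1, Bmp2 and Bmpr1a lay within 4% of control. Beyond these genes, the transcription factor Hand1 fell to 64.1% of its control level, and it was the 1 called gene among 52 other tested genes of the pathway.

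Upstream sequence is shown for the called gene Bmp5, for the feedback target Smad6 and for Bmp4, which has the largest positive estimate of these 4 ligands. RefSeq promoter windows (GRCm38.p6) were matched for 7 of the 10 genes, and the stretch before the start was free of annotated exons in 3. The windows of 249 bases are chr9:75775115-75775363 (plus strand) for Bmp5 and chr14:46390671-46390919 (minus strand) for Bmp4. For Smad6 the window is chr9:64022086-64022309 (minus strand), of 224 bases, since its other bases lie inside the Smad6 row of the expression table and are left out. Capitals mark GTCT, the short Smad-binding letters, and the GC-rich BMP-Smad motifs GGAGCC and GGCGCC, searched on both strands; none of these matches overlapped another.
Bmp5: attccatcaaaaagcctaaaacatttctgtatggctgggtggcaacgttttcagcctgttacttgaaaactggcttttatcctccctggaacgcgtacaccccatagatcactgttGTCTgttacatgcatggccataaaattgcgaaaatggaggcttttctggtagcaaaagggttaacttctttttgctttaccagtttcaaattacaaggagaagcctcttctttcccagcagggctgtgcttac
Smad6: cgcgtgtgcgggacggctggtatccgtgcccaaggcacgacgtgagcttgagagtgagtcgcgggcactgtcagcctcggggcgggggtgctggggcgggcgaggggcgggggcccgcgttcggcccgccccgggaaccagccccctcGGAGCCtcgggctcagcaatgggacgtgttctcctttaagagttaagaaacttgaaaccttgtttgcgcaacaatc
Bmp4: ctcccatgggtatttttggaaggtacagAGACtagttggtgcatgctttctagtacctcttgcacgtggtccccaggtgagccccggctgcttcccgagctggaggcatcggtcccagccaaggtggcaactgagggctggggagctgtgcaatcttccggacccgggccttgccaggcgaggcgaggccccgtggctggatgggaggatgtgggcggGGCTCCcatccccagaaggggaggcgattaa
The Bmp5 window held 1 GTCT and neither GC-rich motif, at a GC content of 43%. The Smad6 window held 1 match to GGAGCC, with a GC content of 66.5%, and the Bmp4 window held 1 GGAGCC and 1 GTCT at 63.1%. Over 32851 RefSeq promoter windows of 249 bases, 82.7% held GTCT, 25.8% held GGAGCC and 9.52% held GGCGCC; over 224 bases these shares were 79.8%, 23.4% and 8.36%. These matches describe letters only and were not tested as binding sites.

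Values are transcripts per 1000000 (TPM), which divide reads by transcript length and scale each library to the same total, so levels can be set side by side between genes. The depth behind them is unknown. Between 15336 and 15752 rows reached 1 TPM in a library. Rps19bp1 itself, the check of the labels, averaged 39.9 ± 3.93 TPM in the control libraries and 14.96 ± 3.14 TPM in the cKO libraries (SD, n = 4 each). Nothing in the labels says whether a library came from 1 embryo or several, so p-values measure the spread between these libraries.

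Id2 was the most abundant of the 10 genes, with a mean of 229 TPM over the 8 libraries, followed by Id3 (199.9 TPM), Bmp7 (135 TPM), Id1 (97.8 TPM), Smad6 (86.5 TPM), Bmpr1a (72.9 TPM), Bmpr2 (26.6 TPM), Bmp4 (19.7 TPM), Bmp5 (18.6 TPM) and Bmp2 (11.4 TPM). Neighbours in this order overlapped in their ranges over the 8 libraries, except that every Bmpr1a value lay above every Bmpr2 value. Within libraries the order was steadier for some pairs than for others. Id2 exceeded Id3 in 8 of 8 libraries, whereas Id1 exceeded Smad6 in 5. Bmp5 exceeded Bmp4 in all 4 control libraries, and Bmp4 exceeded Bmp5 in 3 of the 4 cKO libraries.

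**Figure D1:**
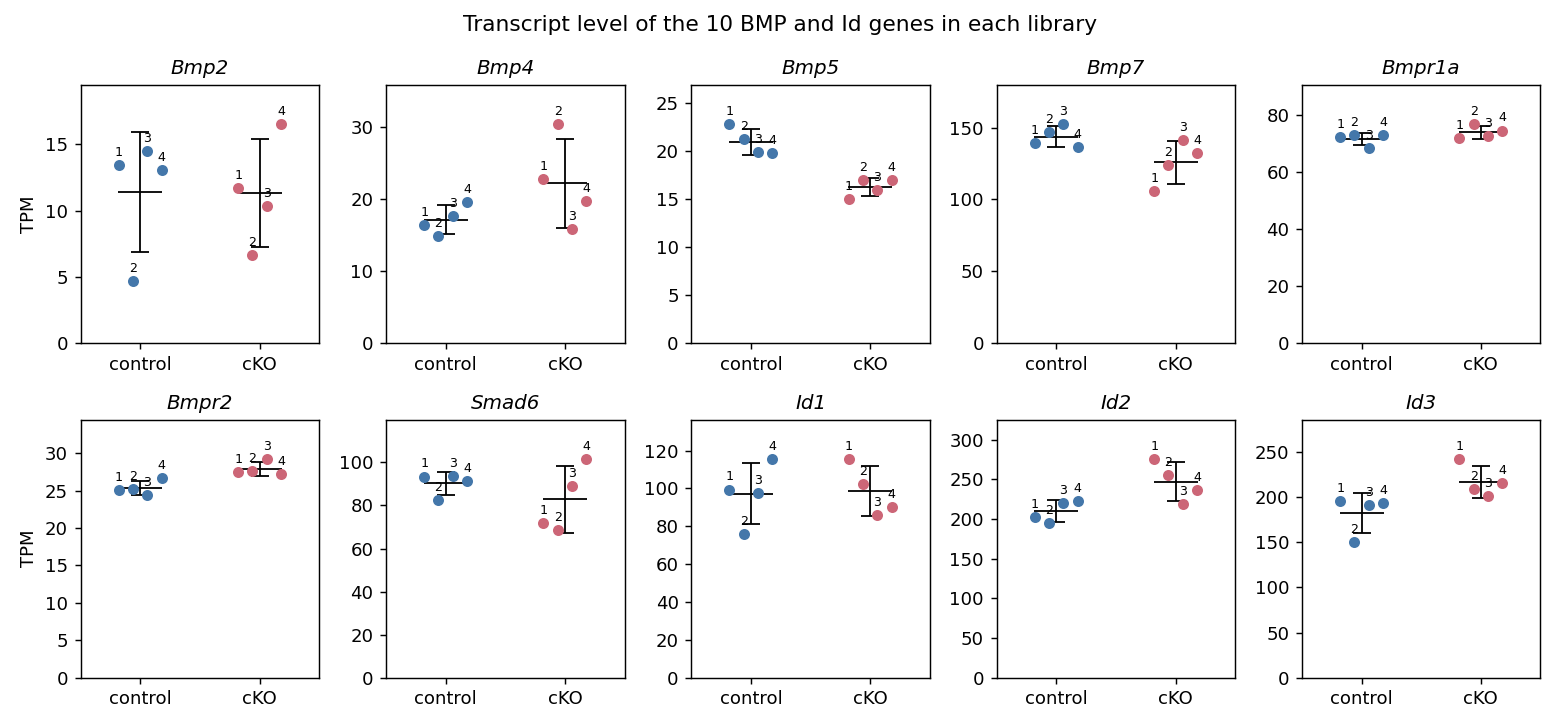
TPM of the 10 genes (vertical axes, linear from 0) in control (blue) and cKO (red) libraries; numbers are replicates, the bar is the mean and the whiskers are 1 SD (n = 4). The groups are separate for Bmp5, Bmpr2 and Id3 and overlap for the other 7 genes.

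Among the ligands, Bmp5 (chr9:75775365-75900316) stood at 22.8, 21.2, 19.9 and 19.8 TPM in control replicates 1 to 4. The cKO replicates 1 to 4 held 15.1, 16.98, 15.99 and 16.99 TPM. All 4 cKO values lay below all 4 control values, and Bmp5 varied little within groups, with coefficients of variation of 6.64% in control and 5.71% in cKO. Mean Bmp5 fell from 20.96 ± 1.39 to 16.3 ± 0.928 TPM (SD, n = 4), a difference of -0.35 on the log2(TPM + 1) scale (SE 0.0644, 95% confidence interval -0.49 to -0.20, limma adjusted p = 0.0159). Confidence intervals here and later are for single genes and are not adjusted for the number of rows tested. The exact permutation test gave p = 0.0286, the smallest that 70 assignments of 8 libraries to groups of 4 allow. Any row with separate groups gets this value, as did the uncalled Bmpr2 and Id3, so it adds nothing to the separation. With any single library left out, the limma adjusted p of Bmp5 stayed between 0.0208 and 0.0464. With a block for replicate number in the model it was 0.0592, so Bmp5 did not pass there.

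Across all 15541 tested rows 6.4% were called at a limma adjusted p under 0.05, 2.16% higher and 4.23% lower in cKO. The 10 genes gave 0 calls higher and 1 lower, a share near that of the table. Groups did not overlap in 3 of the 10 genes, against 15.6% of all tested rows, and 5 of the 10 had an unadjusted limma p under 0.05, against 23.7%. The median log2 difference of the 10 genes was 0.035, and that of all tested rows was -0.022.

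Bmp7 (chr2:172868012-172940321), which acts in the myocardium beside Bmp5, was the most abundant of the 4 ligands. It stood at 139, 147, 152 and 136 TPM in control replicates 1 to 4 and at 106, 124, 141 and 132 TPM in cKO replicates 1 to 4. Only cKO replicate 3 reached into the control range. The log2 difference was -0.20 (95% confidence interval -0.38 to -0.016, limma adjusted p = 0.177), so Bmp7 did not pass the threshold, and without cKO replicate 1 it was -0.12. The Bmp7 row overlaps the predicted gene Gm40010 on the same strand, and its reads could be shared with it.

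Bmp4 (chr14:46383525-46390669), a ligand of outflow tract and mesenchyme, had a higher mean in cKO but overlapping groups. Control replicates 1 to 4 held 16.4, 14.8, 17.7 and 19.6 TPM, and cKO replicates 1 to 4 held 22.7, 30.4, 15.9 and 19.7 TPM. The cKO replicate 2 stood above every other library and cKO replicate 3 below 3 of the 4 control libraries. The cKO group had a coefficient of variation of 27.8% against 11.8% in control. The difference of 0.32 carried a 95% confidence interval of -0.039 to 0.69 (limma adjusted p = 0.262). It was 0.17 without cKO replicate 2, the highest library. Bmp4 overlaps 2 predicted genes on the opposite strand.

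Bmp2 (chr2:133552159-133562896), the ligand of atrioventricular canal myocardium, was the lowest and least even of the 10 genes. It stood at 13.5, 4.71, 14.5 and 13.03 TPM in control replicates 1 to 4 and at 11.7, 6.68, 10.3 and 16.5 TPM in cKO replicates 1 to 4. Both replicates numbered 2 were low and the groups overlapped throughout. The log2 difference of Bmp2 was 0.027 (95% confidence interval -0.70 to 0.76, limma adjusted p = 0.973), an interval too wide to exclude a change as large as that of Bmp5 in either direction. Without control replicate 2 the difference was -0.31.

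The 2 libraries lowest in Bmp2 were also the lowest in Tbx2, Tbx3 and Twist1, which are 3 of 21 listed canal and cushion markers. The other markers did not share this lowest pair. The canal marker Kcne1 was highest in cKO replicate 2, at 36.8 TPM. The cushion marker Vcan was lowest in control replicate 2 (318 TPM) but highest in cKO replicate 2 (380 TPM). Tbx2, a repressor that marks atrioventricular canal myocardium, held 13.3, 8.39, 14.4 and 13.8 TPM in control replicates 1 to 4 and 11.3, 8.95, 12.8 and 15.95 TPM in cKO replicates 1 to 4. Tbx3, its close relative in the canal and conduction system, held 8.60, 2.65, 9.49 and 8.93 TPM in control and 8.37, 3.98, 8.19 and 9.63 TPM in cKO. Twist1, a factor of cushion mesenchyme, held 78.4, 33.6, 76.7 and 66.8 TPM in control and 61.1, 37.9, 73.9 and 96.7 TPM in cKO. For Bmp2, Tbx2, Tbx3 and Twist1 alike, the lowest library was control replicate 2, the next lowest was cKO replicate 2 and the highest was cKO replicate 4. Msx1, a homeobox target outside the 21 markers, had the same 2 lowest libraries and the same highest one. It held 4.06 TPM in control replicate 2, 4.73 TPM in cKO replicate 2 and 16.6 TPM in cKO replicate 4. Other genes outside the 21 markers were not counted. Tbx2, Tbx3, Twist1, Msx1, Kcne1 and Vcan were picked after their values were seen. The part that the amount of canal tissue in each dissection plays in Bmp2 was not tested.

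**Figure D2:**
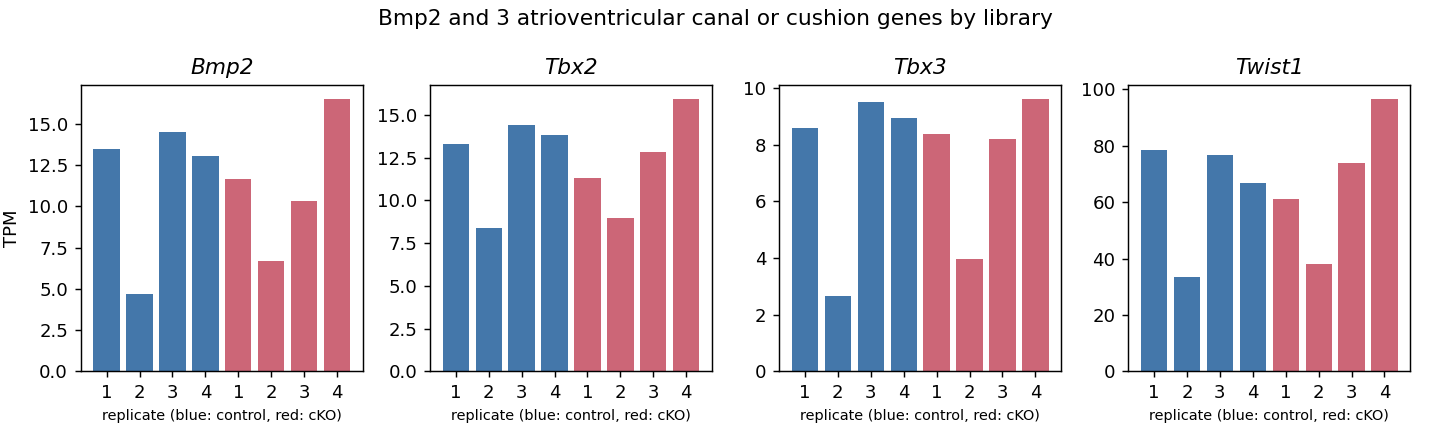
TPM of Bmp2, Tbx2, Tbx3 and Twist1 (vertical axes, linear from 0) in control (blue) and cKO (red) replicates 1 to 4, 1 bar per library. Control replicate 2 is the lowest and cKO replicate 4 the highest library for each of the 4 genes.

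The 4 ligands summed to 192, 188, 204 and 189 TPM in control replicates 1 to 4 and to 155, 178, 183 and 185 TPM in cKO replicates 1 to 4. The sums did not overlap between groups, which was also so for 15.6% of all single tested rows. The cKO mean was -9.20% from control, or -5.70% without cKO replicate 1. This sum was formed with the values known and has no test. It leaves out other ligands, among them Bmp10, whose mean was 129.7 TPM in control and 137 TPM in cKO with overlapping groups. The sum is therefore not the total of BMP ligands. Bmp7 supplied 68.1% to 78.3% of the sum of the 4 ligands in each library. The share of Bmp5 was 10.9% ± 0.934 (SD, n = 4) in control and 9.28% ± 0.429 (SD, n = 4) in cKO.

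The receptors were the steadiest of the 10 genes. Bmpr1a (chr14:34411061-34503336), the type I receptor needed in myocardium and cushions, held 72.2, 73.1, 68.6 and 73.1 TPM in control replicates 1 to 4 and 71.99, 76.8, 72.6 and 74.6 TPM in cKO replicates 1 to 4. These ranges overlapped, and the difference of 0.044 had a 95% confidence interval of -0.053 to 0.14 (limma adjusted p = 0.590). Bmpr2 (chr1:59764279-59878081), the type II receptor, held 25.1, 25.2, 24.4 and 26.7 TPM in control and 27.5, 27.6, 29.2 and 27.2 TPM in cKO. Its cKO values all lay above its control values, at 110.1% of control. The Bmpr2 difference of 0.13 (95% confidence interval 0.023 to 0.24) did not pass over all tested rows (limma adjusted p = 0.139).

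**Figure D3:**
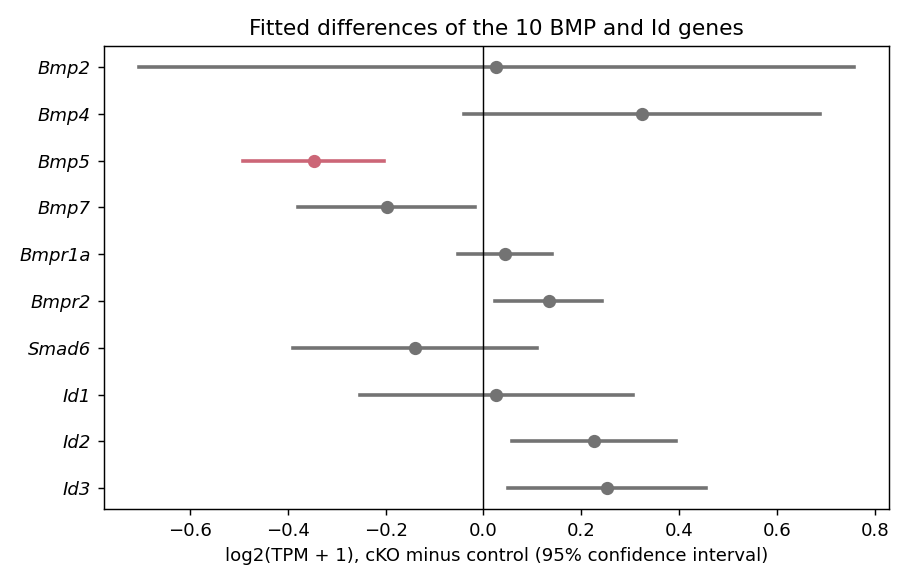
Fitted difference in log2(TPM + 1), cKO minus control (horizontal axis), with 95% confidence intervals for each of the 10 genes; red marks a limma adjusted p under 0.05. Bmp5 at -0.35 is the 1 red interval, and those of Bmp2 and Bmp4 are the widest.

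Smad6 (chr9:63953076-64022085) encodes an inhibitory Smad that BMP signals induce and that dampens them. Control replicates 1 to 4 held 93.5, 82.6, 93.6 and 91.4 TPM, and cKO replicates 1 to 4 held 71.8, 68.8, 89.04 and 101.6 TPM. The cKO replicates 1 and 2 lay below every control library and cKO replicate 4 lay above every one. Spread was accordingly larger in cKO (coefficient of variation 18.6%) than in control (5.79%). The log2 difference was -0.14 (95% confidence interval -0.39 to 0.11, limma adjusted p = 0.496). Leaving out cKO replicate 2 gave -0.057, and leaving out cKO replicate 4 gave -0.24. Smad7, the inhibitory Smad shared with TGF-beta signals, differed by -0.097 (limma adjusted p = 0.663), or by -0.020 without cKO replicate 2. In cKO it was also lower in replicates 1 and 2 (23.3 and 22.03 TPM) than in replicates 3 and 4 (29.7 and 29.9 TPM).

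None of the 3 Id genes passed the test, and their estimates ranged from near 0 for Id1 to 0.25 for Id3. Id1 (chr2:152736251-152737410) held 99.4, 76.01, 97.8 and 115 TPM in control replicates 1 to 4 and 116, 103, 85.8 and 90.2 TPM in cKO replicates 1 to 4. The groups covered nearly the same range, and the difference was 0.026 (95% confidence interval -0.25 to 0.31, limma adjusted p = 0.926). It turned to -0.085 without control replicate 2 and to -0.053 without cKO replicate 1.

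Id2 (chr12:25093799-25096092) held 202, 195, 220.5 and 223 TPM in control and 276, 256, 219 and 237 TPM in cKO. Only cKO replicate 3 fell inside the control range. The log2 difference of Id2 was 0.23 (SE 0.0753, 95% confidence interval 0.059 to 0.39), short of the threshold on TPM as deposited (limma adjusted p = 0.104) and past it after quantile normalization (0.28, limma adjusted p = 0.0373).

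Id3 (chr4:136143822-136145392) held 196, 149.9, 192 and 194 TPM in control and 242, 209, 202 and 216 TPM in cKO. All cKO values lay above all control values. The difference of 0.25 (SE 0.0910, 95% confidence interval 0.050 to 0.45) did not pass the threshold (limma adjusted p = 0.130). It was 0.16 without control replicate 2, whose Id3 value stood well below the other 3 controls. Whether the differences of Id1, Id2 and Id3 differ from each other was not tested.

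Within the cKO group the 3 Id genes ordered the libraries alike at the ends. Replicate 1 was the highest and replicate 3 the lowest of the 4 cKO libraries for Id1, Id2 and Id3. In control, replicate 2 was the lowest library for Bmp2, Bmp4, Smad6, Id1, Id2 and Id3, which is 6 of the 10 genes. Summed over Id1, Id2 and Id3, control replicates 1 to 4 held 498, 421, 510 and 532 TPM and cKO replicates 1 to 4 held 633, 567, 506 and 543 TPM. These sums overlapped between groups.

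**Figure D4:**
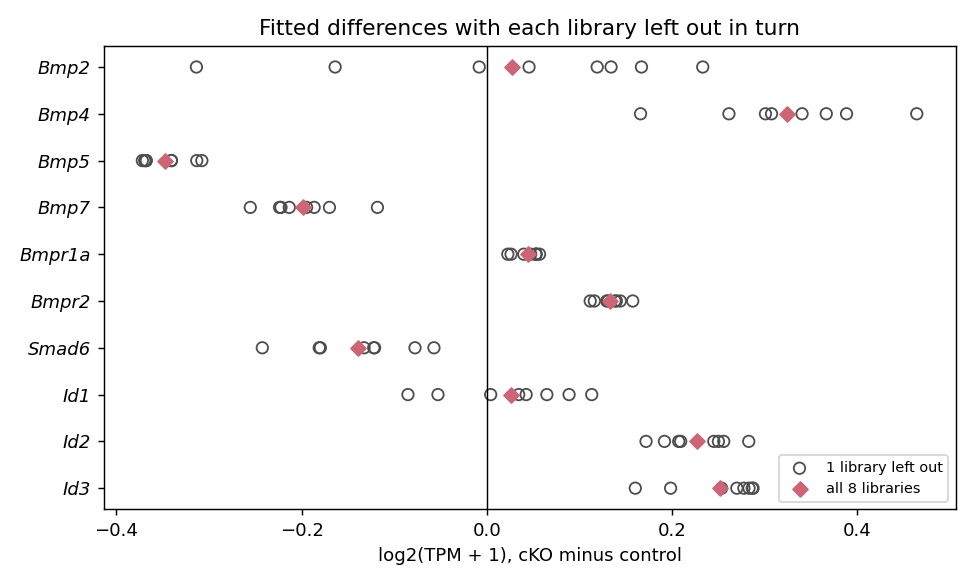
Fitted difference in log2(TPM + 1), cKO minus control (horizontal axis), of the 10 genes with all 8 libraries (red diamonds) and with each library left out in turn (open circles). Bmp5 stays between -0.37 and -0.31, while Bmp2 ranges from -0.31 to 0.23 and Id1 from -0.085 to 0.11.

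The rest of the pathway was described from 5 lists holding 67 genes, of which 52 were tested. Among these 52, 0 were called higher and 1 lower, against 2.16% and 4.23% of all tested rows. An unadjusted limma p under 0.05 was found for 17, against 23.7% of all tested rows. The median log2 difference of the 52 was 0.068, with 35 positive and 17 negative estimates. Of all tested rows 55.8% had negative estimates. The 1 called gene was Hand1, a basic helix-loop-helix factor of left ventricular and outflow tract myocardium that has been linked to BMP signals. It held 91.5, 77.6, 92.6 and 88.01 TPM in control replicates 1 to 4 and 56.8, 53.2, 51.8 and 62.2 TPM in cKO replicates 1 to 4. The groups were far apart, and the difference was -0.63 (SE 0.0727, limma adjusted p = 0.00195). Hand1 stayed past the threshold under all 18 alternatives.

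Of 10 other BMP and GDF ligands, 3 were tested and 0 were called, with 1 at an unadjusted limma p under 0.05. Bmp10, a ligand of trabecular myocardium that is also on the atrial marker list below, held 129.7 ± 8.71 TPM in control and 137 ± 20.4 TPM in cKO (SD, n = 4). The means of Bmp7 were 144 TPM in control and 126 TPM in cKO. The log2 difference of Bmp10 was 0.066 (limma adjusted p = 0.724), and -0.021 without cKO replicate 3. Bmp6, an endothelial and endocardial ligand, differed by 0.27 (limma adjusted p = 0.327). Gdf6, which had the smallest p of this list, held 8.56 ± 1.31 TPM in control and 11.1 ± 1.13 TPM in cKO (SD, n = 4), a difference of 0.35 (limma adjusted p = 0.0862).

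All 10 other receptors and co-receptors were tested, with 6 positive and 4 negative estimates, 0 calls and 4 at an unadjusted limma p under 0.05. Acvr1, a further type I BMP receptor, differed by 0.055 (limma adjusted p = 0.544). Rgma, a co-receptor, had the smallest p, with a difference of 0.36 from a control mean of 2.78 TPM (limma adjusted p = 0.135). The others at an unadjusted limma p under 0.05 were Acvrl1, Acvr2b and Eng. They differed by -0.24, -0.16 and 0.27 (limma adjusted p = 0.174, 0.176 and 0.182).

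Of 20 antagonists and modulators 12 were tested, with 10 positive and 2 negative estimates, 0 calls and 4 at an unadjusted limma p under 0.05. Nog, which encodes the BMP trap Noggin, held 7.43, 5.90, 5.69 and 7.01 TPM in control and 3.90, 5.15, 4.60 and 5.91 TPM in cKO. The groups overlapped through cKO replicate 4, and the difference of -0.36 had a limma adjusted p of 0.109. Bmp1, Twsg1 and Fstl1, also at an unadjusted limma p under 0.05, differed by 0.28, 0.13 and 0.11 (limma adjusted p = 0.110, 0.123 and 0.187). Chrd and Grem1, which encode other traps, had control means of 0.384 and 0.0211 TPM and were not tested.

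Of 15 intracellular mediators and inhibitors, all were tested, with 9 positive and 6 negative estimates, 0 calls and 6 at an unadjusted limma p under 0.05. The BMP-activated Smads differed by 0.15 (Smad1, limma adjusted p = 0.178), 0.15 (Smad5, limma adjusted p = 0.0946) and 0.057 (Smad9, limma adjusted p = 0.828). Smad5 was the most abundant of these, with 38.8 ± 1.58 TPM in control and 43.1 ± 1.21 TPM in cKO (SD, n = 4), and after quantile normalization its difference of 0.19 passed (limma adjusted p = 0.0427). Smad4, their common partner, differed by 0.068 (limma adjusted p = 0.548). The 6 genes at an unadjusted limma p under 0.05 were Smad1, Smad5, Ppm1a, Tob1, Skil and Ski. Tob1, Skil and Ski differed by 0.32, 0.19 and 0.14 (limma adjusted p = 0.0974, 0.0972 and 0.150). Ppm1a, a phosphatase that acts on receptor-activated Smads, had the smallest p of the list. It held 73.7, 75.6, 68.3 and 56.2 TPM in control and 42.7, 42.8, 54.9 and 60.2 TPM in cKO, a difference of -0.45 (limma adjusted p = 0.0650). Without cKO replicate 4 the Ppm1a difference was -0.54 and passed (limma adjusted p = 0.0330), and without control replicate 4 it also passed (-0.54, limma adjusted p = 0.0450).

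Among 12 other targets and Id partners, 7 estimates were positive and 5 negative, Hand1 was called lower, and 2 genes had an unadjusted limma p under 0.05. Id4, the least abundant Id gene, stood at 2.79 ± 0.491 TPM in control and 3.03 ± 0.656 TPM in cKO (SD, n = 4). Tbx20, a cardiac T-box target of BMP signals, differed by 0.11 (limma adjusted p = 0.260). The homeobox targets Msx1 and Msx2 differed by 0.086 and -0.14 (limma adjusted p = 0.914 and 0.683), and Tbx2 and Tbx3 by -0.023 and 0.080 (limma adjusted p = 0.957 and 0.917). Leaving out single libraries turned the sign of Msx1, Msx2, Tbx2 and Tbx3.

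**Figure D5:**
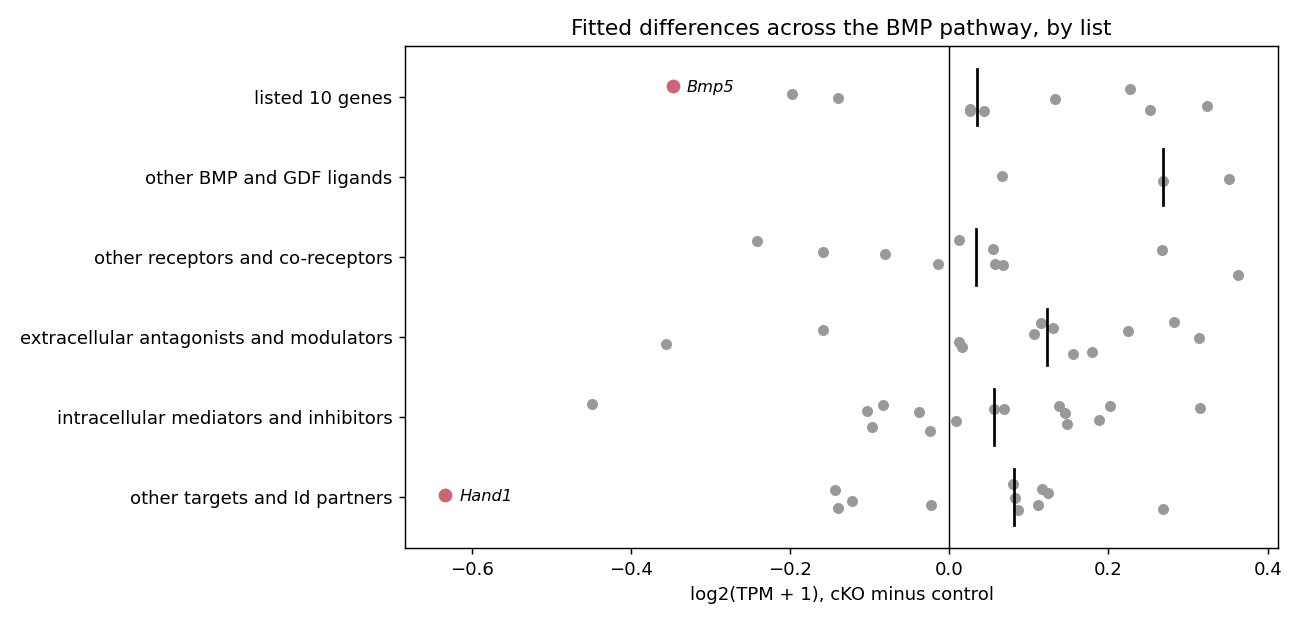
Fitted difference in log2(TPM + 1), cKO minus control (horizontal axis), for each tested gene of the 10 described genes and of the 5 pathway lists (rows); points are spread vertically for visibility, black bars are medians and red marks a limma adjusted p under 0.05. Bmp5 (-0.35) and Hand1 (-0.63) are the red points.

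In bulk tissue, fewer cells of a type and less RNA per cell cannot be told apart, so marker genes of the cells that make and receive BMPs are given beside these results. Of all tested rows, 2.16% were called higher and 4.23% lower in cKO, and 23.7% had an unadjusted limma p under 0.05. The 12 epicardial markers all had positive estimates and 6 were called higher. Their summed level ran from 420.1 to 485 TPM in control and from 495 to 608 TPM in cKO. Of 13 cushion mesenchyme and fibroblast markers, 11 were positive, 4 were called higher and 1 (Fbln1) lower, with sums of 1175 to 1351 TPM in control and 1453 to 1588 TPM in cKO. The 15 endocardial and endothelial markers had 12 positive estimates and 0 calls, with 5 at an unadjusted limma p under 0.05 and overlapping sums (1340.1 to 1432 TPM in control, 1373 to 1556 TPM in cKO). Of 16 cardiomyocyte markers 13 were negative and 1 (Nkx2-5) was called lower, and their sums overlapped (52434 to 57293 TPM in control, 51393 to 53977 TPM in cKO). The 8 atrioventricular canal markers summed to 145 to 220.1 TPM in control and 174 to 239 TPM in cKO, with 1 (Hcn4) called lower. Of 10 outflow tract and second heart field markers 6 were tested, with 3 positive and 3 negative estimates. Of these, 1 was called higher and 2 lower, Hand1 among the latter. The list summed to 269 to 283 TPM in control and 198 to 258 TPM in cKO. That sum includes Hand1 itself (means of 87.4 and 56.0 TPM), so it is not a separate measure beside Hand1. Of 8 atrial markers 7 were tested, with 3 positive and 4 negative estimates, 0 calls and 2 at an unadjusted limma p under 0.05. Their sums were 7561 to 7852 TPM in control and 8014 to 10194 TPM in cKO, most of which was Nppa and Myl7. Mean Nppa was higher in cKO (4276 TPM in control, 5844 TPM in cKO) and mean Myl7 was lower (3281 and 3071 TPM). The 2 atrial markers at an unadjusted limma p under 0.05 were Nppa and Stard10. Mean Stard10 was lower in cKO (18.6 TPM in control, 14.8 TPM in cKO). No marker of these 7 lists had a group mean of 0. The part of these cell types in the values of Bmp5, Hand1, Id2 and Id3 was not tested. Of 11 neural markers 4 were tested, with 0 calls and 1 at an unadjusted limma p under 0.05. The neural list summed to 42.5 to 58.5 TPM in control and 41.7 to 53.5 TPM in cKO, most of which was Gap43 (means of 36.3 and 30.4 TPM), and Neurod1 was listed at 0 in all 8 libraries.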

How the data were processed

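The authors deposited 1 table of TPM values (transcripts per 1000000) for 4 cKO and 4 control libraries, each column summing to about 1000000. Per the submitters' processing notes, Trim Galore 0.6.7, HISAT2 2.2.1, StringTie 2.2.1, featureCounts, FastQC and DESeq2 were used on GRCm38. Which of them produced the TPM, the annotation and the use of strand are not given in the sources used here. The series text names a stranded mRNA kit and the library text ribosomal RNA depletion. The batch field reads the same for every library.

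Rows with a mean of at least 1 TPM over the 8 libraries (15541 of 52778) were tested as log2(TPM + 1) with limma 3.58.1 in R 4.3.3 (two-sided moderated test, trended prior variance, no covariates). Benjamini-Hochberg adjustment covered every tested row. The scale understates changes of low genes. The limma procedure was tested on simulated data with independent normal noise, where it recovered 99% of log2 changes of 1.5 and 90% of 0.75. Smaller changes, such as those of Bmp5, Id2 and Id3, were not simulated. TPM keeps no depth, so no counting error or detection floor is given, and precision is that between libraries. Single values also had an exact two-sided permutation test over 70 assignments.

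The genes, pathway lists, markers and tests were chosen with earlier results of these data known. Named from the pathway lists were all called genes and the gene with the smallest p of each list. A fixed set of core ligands, receptors, Smads, antagonists and targets was also named. Tbx2, Tbx3, Twist1, Msx1, Kcne1 and Vcan were set beside Bmp2, and Smad7 by library beside Smad6, after their values were seen. Bmp1, Twsg1 and Fstl1 were named beside Nog after their values were seen. The same holds for Tob1, Skil and Ski, for Acvrl1, Acvr2b and Eng, and for the marker Stard10. The 18 alternatives were a pseudocount of 0.1 or 5, no filter or a minimum mean of 5 TPM, array weights, an untrended prior variance, 3 other scalings (quantile, median-ratio, and totals without mitochondrial and globin rows), a replicate block, and each library left out in turn. Motifs were searched by exact letters. Figures were drawn with matplotlib 3.10.9.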

Additional observations from a re-analysis of the deposited data

Results flagged for a closer look

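In 58 groups of 4 libraries (29 genes in control and in cKO), 4 held a library far from the other 3, by a gap to its nearest neighbour that took up most of the group's range (Dixon's 95% limit, which chance passes in about 1 in 20 groups). All 4 were control replicate 2. Bmp2 stood there at 4.71 TPM, where the other control libraries held 13.03 to 14.5 TPM. Id3 stood at 149.9 TPM against 192 to 196 TPM. Smad7 stood at 23.2 TPM against 29.4 to 30.1 TPM, and Tbx3 at 2.65 TPM against 8.60 to 9.49 TPM. The summed atrioventricular canal markers were lowest in the same library (145 TPM), and that sum includes Tbx3.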

How the results depend on the processing

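The count of called genes among the 10 was 1 under 16 of 18 alternatives. It was 2 after quantile normalization (Bmp5 and Id2) and 0 with a replicate block, where Bmp5 kept its difference of -0.35 at a limma adjusted p of 0.0592. Replicate numbers showed no clear pairing of the libraries. Deviations of same-numbered libraries correlated between -0.0891 and 0.0674, and 2 of 4 cKO libraries correlated best with their own number. These values cannot exclude a pairing. Both replicates numbered 2 were the lowest for Bmp2, Tbx2, Tbx3 and Twist1, genes described together after their values were seen. With single libraries left out the count of called genes among the 10 stayed at 1. Among the other pathway genes the count was 1, 2 after quantile normalization and 1 to 2 with single libraries left out. Uncalled genes changed sign. With single libraries left out, differences ranged from -0.31 to 0.23 for Bmp2, -0.085 to 0.11 for Id1, -0.021 to 0.14 for Bmp10, -0.028 to 0.13 for Smad9, -0.23 to 0.37 for Msx1, -0.29 to 0.013 for Msx2, -0.19 to 0.11 for Tbx2 and -0.28 to 0.32 for Tbx3. Array weights gave -0.046 for Bmp2 and -0.013 for Tbx3, and Tbx2 was 0.0027 after median-ratio scaling and 0.010 without mitochondrial and globin rows. The cause of these changes was not tested. No scaling moved the median of all tested rows by over 0.1, and Bmp5 and Hand1 were negative under all alternatives. Depth is unknown, so it cannot be said how far it limits low genes such as Bmp2.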
